A study of Mus musculus with 10 samples.

Results

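The genes described here are 6 Toll-like receptors other than the LPS receptor Tlr4 (Tlr1, Tlr2, Tlr3, Tlr6, Tlr7 and Tlr9), together with Cd180 and Ly86, which encode the receptor RP105 and its partner MD-1. They were chosen by gene symbol: every probe set that the platform annotation gives to 1 of the 8 symbols was taken, 11 of the 22690 probe sets on the array. Tlr3 has 2 probe sets and Tlr7 has 3, and the other 6 genes have 1 each. Of the 8 genes, 7 were bright enough to be tested, meaning that the scaled signal was above the median of all probe sets, 99.2, on at least 2 arrays, and Tlr9 was not.

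The study used 10 Affymetrix arrays of dendritic cells derived from bone marrow of mice aged 6 to 8 weeks and cultured with GM-CSF, used once more than 90% were CD11c-positive per the labels. Cells of C57BL/6 mice, called wild type, and of Cd14-/- mice on C57BL/6, called CD14-deficient, were each left unstimulated and harvested 24 h after plating, or given smooth LPS at 1 µg/ml for 48 or 60 h, or the same LPS with 50 nM thapsigargin for 48 or 60 h. Thapsigargin inhibits the SERCA pump, which loads calcium into the endoplasmic reticulum, and so raises the calcium of the cytosol. Per the labels, the series asked which apoptosis genes depend on NFAT, a calcium-driven transcription factor. Each of the 10 conditions was measured on 1 array, so no condition has a replicate, and the unstimulated cells differ from the stimulated ones in harvest time as well as in LPS.

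Toll-like receptors are pattern recognition receptors that bind microbial molecules and signal through adaptors such as MyD88 and TRIF to NF-kappaB and interferon regulatory factors. TLR2 acts at the cell surface as a pair with TLR1 or TLR6 and binds bacterial lipopeptides, whereas TLR3, TLR7 and TLR9 act in endosomes and bind double-stranded RNA, single-stranded RNA and unmethylated CpG DNA. RP105 resembles TLR4 outside the cell but has no TIR signalling domain. It is held at the surface by MD-1 as TLR4 is held by MD-2, and in dendritic cells and macrophages it is known to restrain TLR4 signalling.

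Promoter windows of the 5 genes whose values are described most are printed here so that the sequence can be read beside the expression values. Each runs from 250 bases before to 50 bases after a RefSeq start site on build GRCm38.p6, 5′ to 3′ on the strand of the gene, and 7 of the 8 genes, all but Tlr7, matched the RefSeq promoter table. Capitals mark matches on either strand to GGG and CC with 5 bases of any kind between them (NF-kappaB type), to GAAA and GAAA with 2 bases of any kind between them (interferon response type), to GAGGAA (PU.1 type) or to TGANTCA (AP-1 type), and matches to different patterns did not overlap.
Tlr1: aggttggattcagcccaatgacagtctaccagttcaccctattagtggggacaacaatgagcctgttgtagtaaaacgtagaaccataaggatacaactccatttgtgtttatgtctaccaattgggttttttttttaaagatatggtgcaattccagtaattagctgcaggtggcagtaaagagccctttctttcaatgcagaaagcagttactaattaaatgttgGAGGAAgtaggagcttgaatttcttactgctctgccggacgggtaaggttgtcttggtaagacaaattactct
Tlr2: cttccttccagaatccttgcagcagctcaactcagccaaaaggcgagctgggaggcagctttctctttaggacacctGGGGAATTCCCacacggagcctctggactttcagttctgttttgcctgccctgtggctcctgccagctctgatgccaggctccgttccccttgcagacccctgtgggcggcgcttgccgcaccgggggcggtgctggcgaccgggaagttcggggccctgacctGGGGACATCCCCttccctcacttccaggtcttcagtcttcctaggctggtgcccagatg
Tlr3: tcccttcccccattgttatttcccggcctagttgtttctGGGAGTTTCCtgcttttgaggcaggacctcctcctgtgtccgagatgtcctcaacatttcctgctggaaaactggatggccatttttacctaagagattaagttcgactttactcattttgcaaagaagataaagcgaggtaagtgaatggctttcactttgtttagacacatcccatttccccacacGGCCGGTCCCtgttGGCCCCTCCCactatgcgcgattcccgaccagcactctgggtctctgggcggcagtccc
Tlr6: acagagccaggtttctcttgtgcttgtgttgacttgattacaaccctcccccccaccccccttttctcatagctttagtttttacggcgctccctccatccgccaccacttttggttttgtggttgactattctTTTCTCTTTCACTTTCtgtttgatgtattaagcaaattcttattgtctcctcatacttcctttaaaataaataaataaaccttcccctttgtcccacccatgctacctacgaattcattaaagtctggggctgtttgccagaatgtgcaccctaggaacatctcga
Ly86: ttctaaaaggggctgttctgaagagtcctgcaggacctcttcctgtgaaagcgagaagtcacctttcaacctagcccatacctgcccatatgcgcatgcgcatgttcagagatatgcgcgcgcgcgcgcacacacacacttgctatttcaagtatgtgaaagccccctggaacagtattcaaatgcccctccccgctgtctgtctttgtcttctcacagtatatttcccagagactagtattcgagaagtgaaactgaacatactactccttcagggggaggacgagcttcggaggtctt
They lie at chr5:64933509-64933808 (Tlr1), chr3:83841559-83841858 (Tlr2), chr8:45410331-45410630 (Tlr3) and chr5:64959117-64959416 (Tlr6), all on the minus strand, and at chr13:37345095-37345394 on the plus strand (Ly86). Tlr1 and Tlr6, whose products both pair with TLR2, are close neighbours on chromosome 5 on the same strand. Each of them had a second window that is not printed, at chr5:64932650-64932949 (Tlr1) and chr5:64959999-64960298 (Tlr6). The unprinted Tlr1 window held no match to any of the patterns, and the unprinted Tlr6 window held an NF-kappaB type match.

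The interferon response letters were found in 1 of the 7 matched genes, Tlr6, as TTTCTCTTTC from position -116 and the overlapping TTTCACTTTC from position -110, counted from the start site, which is 1 of the 10 windows of these genes, and 3.44% of the 32851 promoter windows in the table hold such a match. The NF-kappaB letters were found in 3 of the 7 (Tlr2, Tlr3 and the second window of Tlr6), or 3 of 10 windows, against 50.8% of all windows, so the letters alone are common. In Tlr2 they formed clusters at position -173, as GGGGAATTCCC, which holds the symmetrical GGGAATTCCC from position -172, and at position -9. The PU.1 letters were found in 2 of the 10 windows (Tlr1 at position -23, and Tlr9) and in 28.3% of all windows, and the AP-1 letters in 1 of the 10 (Tlr9) and in 7.81% of all windows. The Ly86 window held no match to any of the 4 patterns.

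Signals below are the deposited MAS5 intensities after each array was scaled to 1 trimmed mean, so levels are compared between arrays for 1 probe set and never between genes. The deleted gene followed the labels: Cd14, the LPS co-receptor, read 1499 on the unstimulated wild-type array, 15537 to 17729 on the 4 stimulated wild-type arrays and 1.85 to 7.35 on the 5 CD14-deficient arrays. Of 8 dendritic cell markers, 6 (H2-Ab1, Cd74, Itgax, Zbtb46, Ccr7 and Ciita) were above the median on all 10 arrays, Flt3 was so on 3 and Cd209a on 2. The CD14-deficient LPS arrays at 48 and 60 h were unlike each other: they differed at least 2-fold for 1297 genes, against 115 to 491 in the other 3 pairs of times. The 48 h array had the lowest cRNA yield, 15 µg against 19 to 53.1 µg, the lowest summed signal of 11 measured macrophage markers, 9936 against 15145 to 43875, and the highest Ccr7 signal, 16168 against 2667 to 9547. The 60 h array read 6941 for Itgax and 6642 and 9048 on a pair of 18S ribosomal RNA probe sets, nearer to the unstimulated arrays than to the other 7 stimulated ones, which read 750.4 to 2921 for Itgax and at most 2781 and 3356 for 18S. In these bulk samples, fewer cells of a type and less RNA per cell cannot be told apart.

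**Figure D1:**
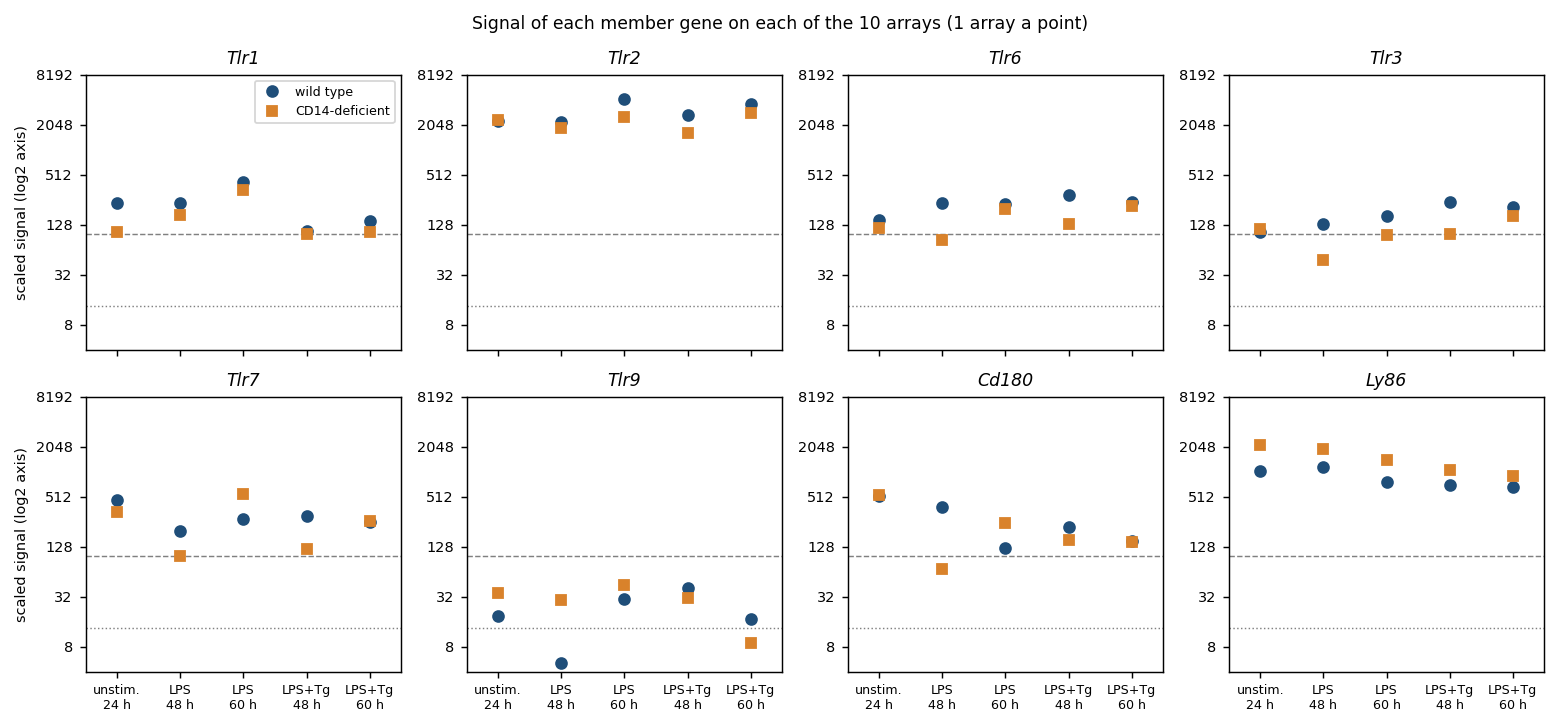
Scaled signal (log2 axis) of each of the 8 genes on the 10 arrays, 1 point for each array, with wild-type cells as circles and CD14-deficient cells as squares; the dashed line is the median of all probe sets, 99.2, and the dotted line the floor, 13.4. Ly86 squares lie above the circles in all 5 conditions, Tlr1 falls with thapsigargin (Tg) in both genotypes, and Tlr9 stays below the dashed line.

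Across the 8 comparisons of the design, 0 of the 7 tested genes passed limma's adjusted p of 0.05, and between 0 and 3 had an unadjusted p under 0.05 in each. Of all 7474 genes tested, 329 to 2504 had an unadjusted p under 0.05 in each, and 2050 between genotypes under LPS. Over all 7474 genes tested, the share that passed was 15.9% for LPS against no stimulus in wild-type cells, 4.17% for the same in CD14-deficient cells, 5.18% between genotypes under LPS and 0.0268% between genotypes under LPS with thapsigargin. It was 0.0535% for thapsigargin under LPS in wild-type cells and 6.62% in CD14-deficient cells. For the difference of the LPS responses between genotypes it was 0%, and for the difference of the thapsigargin effects it was also 0%, with 613 and 994 genes at an unadjusted p under 0.05. Another 3 comparisons were added after the values of these genes had been seen: thapsigargin over both genotypes, where 6.03% of genes passed, the genotypes over the 8 stimulated arrays, where 2.05% passed, and 60 h against 48 h, where 0% passed and 734 genes had an unadjusted p under 0.05. In the first of these Tlr1 fell, 1 of 7 genes tested. In the other 2 none of the 7 passed, with 4 and 3 at an unadjusted p under 0.05, against 1549 and 734 of all 7474 genes. Errors written as ± are limma's standard errors of the log2 difference. They measure how far each pair of 48 and 60 h arrays departs from a common shift, not the spread between cultures or mice. When 1 of the CD14-deficient LPS arrays was left out, the share of all genes that passed was 2 or more times higher in every comparison where it was above 0, up to 44.3% between genotypes under LPS, so values from such fits are given below with the share beside them.

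Of the surface receptors, Tlr1, which makes TLR2 specific for triacyl lipopeptides, showed the clearest pattern. In wild-type cells its signal was 235 unstimulated, 233 and 411 with LPS at 48 and 60 h, and 108 and 142 with LPS and thapsigargin. In CD14-deficient cells it was 106 unstimulated, 167 and 333 with LPS, and 97.9 and 104 with LPS and thapsigargin. Every thapsigargin array therefore read below the LPS array of the same genotype and time, and below both LPS arrays of its genotype, by 1.70-fold to 3.20-fold in the matched pairs.

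Averaged over both genotypes, Tlr1 fell by 1.27 ± 0.21 on the log2 scale with thapsigargin (adjusted p = 0.0271, limma). This comparison was added after the values had been seen, and the adjustment does not cover that choice. Tlr1 was lower in 4 of 4 matched pairs, a pattern that 10.2% of all genes tested shared. With all 12393 genes tested and no filter on dim genes, the adjusted p was 0.0803. The result passed in 2 of the 8 fits that each left out 1 stimulated array, those lacking the CD14-deficient LPS array at 48 h (adjusted p = 0.0048) or at 60 h (adjusted p = 0.0096). In those fits 33.1% and 33.2% of all genes passed. In the other 6 the result did not pass, with an adjusted p of up to 0.191. Within each genotype the differences were of the same size, -1.32 ± 0.29 in wild-type cells (adjusted p = 0.237) and -1.22 ± 0.29 in CD14-deficient cells (adjusted p = 0.0618), and the test of their difference did not pass. The 2 genotypes did not share arrays in this comparison. The summed signal of the 7 of 8 neutrophil markers measured was also lower with thapsigargin in 4 of 4 pairs. It went from 1985 to 669 and from 1806 to 665 in wild-type cells, and from 1907 to 769 and from 2264 to 711 in CD14-deficient cells, at 48 and 60 h. Most of each sum was S100a8, which in wild-type cells read 1698 and 1514.5 with LPS and 499.5 and 538.6 with thapsigargin. Of the 4 of these markers tested, Camp and S100a8 fell. Elane, Mpo and Ltf were not above the median on any array and did not all fall. Ltf read higher with thapsigargin in every pair, and Elane and Mpo did so in both CD14-deficient pairs. The part of these cells in the Tlr1 value was not tested.

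Tlr1 also read higher in wild-type cells in all 5 matched conditions, with ratios from 1.10 to 2.23, the largest of them in unstimulated cells. Only 7.24% of the genes tested were higher in wild-type cells in all 5. With LPS in CD14-deficient cells the log2 difference from the unstimulated array was 1.16 ± 0.36 (adjusted p = 0.133), and 0.66 at 48 h against 1.66 at 60 h. At 60 h Tlr1 read higher than at 48 h in 4 of 4 pairs (3 of 4 after quantile normalization), with a fitted difference of 0.58 ± 0.21 (adjusted p = 0.475). The fit lacking the CD14-deficient LPS array at 48 h gave 1.44 for LPS in CD14-deficient cells (adjusted p = 0.0389), where 15.9% of all genes passed, and -1.50 for thapsigargin there (adjusted p = 0.0164), where 28.8% passed. The fit lacking the 60 h array gave 0.88 for the first, which did not pass, and -0.94 for the second (adjusted p = 0.0496), where 38.7% passed. In order of mean log2 level, the LPS arrays of wild-type cells were highest and the thapsigargin arrays of CD14-deficient cells lowest. The ranges of the first 3 places (wild-type LPS, CD14-deficient LPS, wild-type unstimulated) overlapped.

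Tlr2, the shared partner of TLR1 and TLR6, was bright on every array. It read 2287 unstimulated, 2177 and 4101 with LPS at 48 and 60 h, and 2657 and 3588 with LPS and thapsigargin in wild-type cells. The CD14-deficient values in the same order were 2299, 1886 and 2522, and 1637 and 2829.8. The unstimulated arrays were within 1.01-fold of each other, and the 4 wild-type stimulated arrays each exceeded their CD14-deficient counterparts, by 1.15-fold to 1.63-fold.

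Over the 8 stimulated arrays the Tlr2 genotype difference was 0.49 ± 0.13 (adjusted p = 0.125), with 0.45 ± 0.18 under LPS alone (adjusted p = 0.181) and 0.52 ± 0.18 under LPS with thapsigargin (adjusted p = 1). It passed in the fits lacking the CD14-deficient LPS array at 48 h (0.56, adjusted p = 0.0315) or at 60 h (0.41, adjusted p = 0.0328), where 12.5% and 37.4% of all genes passed. At 60 h Tlr2 was higher than at 48 h in 4 of 4 matched pairs, by 1.34-fold to 1.88-fold, with a fitted difference of 0.64 ± 0.13 (adjusted p = 0.399), and 13.6% of genes tested were higher at 60 h in all 4 pairs. Arrays with thapsigargin read higher than those with LPS alone in 2 pairs and lower in 2.

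Tlr6, which makes TLR2 specific for diacyl lipopeptides, differed from its neighbour Tlr1 in the direction of the thapsigargin pairs, a difference that was not tested. In wild-type cells it read 146 unstimulated, 235 and 226 with LPS, and 291 and 240.5 with LPS and thapsigargin. In CD14-deficient cells it read 117 unstimulated, 83.7 and 199 with LPS, and 131 and 216 with LPS and thapsigargin. Where Tlr1 was lower with thapsigargin in every pair, Tlr6 was higher in every pair, by 1.07-fold to 1.57-fold, as were 19.9% of all genes tested, and its fitted differences had unadjusted p-values above 0.05.

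Wild-type Tlr6 exceeded CD14-deficient Tlr6 in 5 of 5 conditions, and Tlr1 and Tlr6 were the 2 of the 7 tested genes that did so. On the deposited values before scaling Tlr2 and Tlr3 did so as well. The gap was wide at 48 h, 2.80-fold under LPS and 2.22-fold with thapsigargin, and narrow at 60 h, 1.13-fold and 1.11-fold. Over the 8 stimulated arrays the difference was 0.74 ± 0.29 (adjusted p = 0.223), and 1.02 in the fit lacking the CD14-deficient LPS array at 60 h (adjusted p = 0.0181), where 37.4% of all genes passed, but 0.46 in the fit lacking that at 48 h (adjusted p = 0.219). The lowest Tlr6 signal of all 10 arrays, 83.7, is that of the CD14-deficient LPS array at 48 h.

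**Figure D2:**
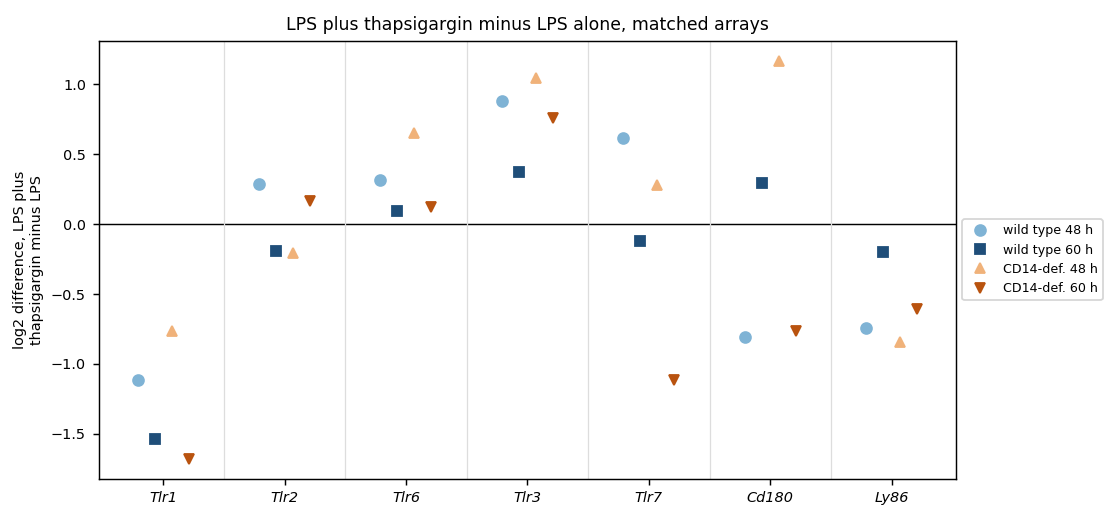
Log2 difference of the scaled signal between LPS with thapsigargin and LPS alone, for each tested gene, in the 4 matched pairs of genotype and time; each point is 1 pair of arrays and the line marks 0. Tlr1 and Ly86 lie below 0 in all 4 pairs, Tlr3 and Tlr6 above 0 in all 4, and Tlr2, Tlr7 and Cd180 have 2 pairs on each side.

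Among the endosomal receptors, Tlr3, the receptor for double-stranded RNA that signals through TRIF, had a bright and a dim probe set. The bright one read 106 in unstimulated wild-type cells, 131 and 160.3 with LPS, and 242 and 208 with LPS and thapsigargin. In CD14-deficient cells it read 113 unstimulated, 47.4 and 95.9 with LPS, and 97.8 and 162 with LPS and thapsigargin. The unstimulated arrays differed by 1.07-fold, and all 4 wild-type stimulated arrays read above the unstimulated level, whereas both CD14-deficient LPS arrays read below it.

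Under LPS the Tlr3 genotype difference was 1.10 ± 0.35 (adjusted p = 0.113), 1.47 at 48 h and 0.74 at 60 h. It was 0.97 ± 0.25 over all 8 stimulated arrays (adjusted p = 0.116). With the CD14-deficient LPS array at 60 h left out, these became 1.48 (adjusted p = 0.0178) and 1.15 (adjusted p = 0.0109), while 44.3% and 37.4% of all genes passed. With that at 48 h left out they were 0.73 (adjusted p = 0.179) and 0.78 (adjusted p = 0.0682), which did not pass. The LPS responses of the genotypes differed by 1.20 ± 0.60 (adjusted p = 0.635). Thapsigargin arrays read higher than LPS arrays in 4 of 4 pairs, with a fitted difference of 0.77 ± 0.25 over both genotypes (adjusted p = 0.123) and 0.90 ± 0.35 in CD14-deficient cells (adjusted p = 0.156). With the 60 h array left out the last was 1.28 (adjusted p = 0.0315, with 38.7% of all genes past the threshold), and with the 48 h array left out 0.53 (adjusted p = 0.280). The comparison of genotypes under LPS and that of thapsigargin in CD14-deficient cells share the CD14-deficient LPS arrays, where Tlr3 was lowest.

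The dim Tlr3 probe set, not tested because it was above the median on 1 array, shared the genotype and thapsigargin pattern at lower signal. It read 24.4, then 40.6 and 85.5, then 59.9 and 128 in wild-type cells, and 29.5, then 16.6 and 37.45, then 31.9 and 52.3 in CD14-deficient cells, in the order unstimulated, LPS, LPS with thapsigargin. As with the bright probe set, each stimulated wild-type array exceeded its CD14-deficient match, and each thapsigargin array exceeded its LPS match. Unlike the bright probe set, its CD14-deficient LPS array at 60 h read above the unstimulated one. The Pearson correlation of the 2 probe sets over the 10 arrays was 0.86.

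Tlr7, the receptor for single-stranded RNA, had its highest wild-type signal in unstimulated cells. The wild-type values were 466 unstimulated, 198 and 276 with LPS, and 303 and 253 with LPS and thapsigargin. In CD14-deficient cells they were 335 unstimulated, 99.85 and 558 with LPS, and 121 and 258 with LPS and thapsigargin. All stimulated arrays but 1 read below the unstimulated array of their genotype. The exception, CD14-deficient LPS at 60 h, read 5.59-fold above its 48 h match, the widest gap between the 2 times among the 7 tested genes.

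No Tlr7 comparison passed. In CD14-deficient cells the LPS difference was -0.51 ± 0.75 (adjusted p = 0.731) and the thapsigargin difference -0.42 ± 0.61 (adjusted p = 0.689), and both changed sign with the array left out. The LPS difference was -1.53 (adjusted p = 0.0499, with 38.6% of all genes past the threshold) when the CD14-deficient LPS array at 60 h was left out and 0.52 (adjusted p = 0.491) when that at 48 h was. The thapsigargin difference was 0.61 (adjusted p = 0.280) and -1.44 (adjusted p = 0.0495, with 28.8% of all genes past the threshold) in the same fits. Its other 2 probe sets, which share 1 expressed sequence tag as target, were dim (26.5 to 97.1 and 25.3 to 101) and not tested. In these, 6 and 7 of the 8 stimulated arrays read above the unstimulated array of their genotype, against 1 of 8 for the bright probe set. They correlated with each other at 0.87 but with the bright one at only 0.25 and 0.35, over 10 arrays.

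Tlr9, the receptor for CpG DNA, was not above the median on any array. It read 18.7 unstimulated, 5.06 and 30.1 with LPS, and 40.6 and 17.0 with LPS and thapsigargin in wild-type cells, and 35.8, then 28.9 and 44.4, then 30.8 and 8.80 in CD14-deficient cells. Values of 5.06 and 8.80 are under the floor of 13.4, so no direction is read from this probe set.

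Cd180, which encodes RP105, was highest in unstimulated cells of both genotypes and alike between them, 523 in wild-type and 529.8 in CD14-deficient cells. With LPS it read 383 and 123 in wild-type cells and 69.0 and 245 in CD14-deficient cells at 48 and 60 h. With LPS and thapsigargin it read 219 and 151 in wild-type cells and 155 and 144 in CD14-deficient cells. All 8 stimulated arrays were below the unstimulated array of their genotype, by 1.36-fold to 7.67-fold, a pattern that 21.3% of all genes tested shared.

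The spread between 48 and 60 h under LPS was wide and ran in opposite directions, 3.12-fold down in wild-type cells and 3.55-fold up in CD14-deficient cells, whereas with thapsigargin it was 1.45-fold and 1.08-fold. The LPS difference was thus -1.27 ± 0.92 in wild-type cells (adjusted p = 0.387) and -2.03 ± 0.92 in CD14-deficient cells (adjusted p = 0.260). Leaving out the CD14-deficient LPS array at 60 h gave -3.32 for the CD14-deficient value (adjusted p = 0.0072, with 38.6% of all genes past the threshold), and leaving out that at 48 h gave -0.73. The Cd180 genotype difference under LPS turned from 2.03 without the 60 h array (adjusted p = 0.0190, with 44.3% of all genes past the threshold) to -0.56 without the 48 h array (adjusted p = 0.436), so no direction is read from it. The wild-type LPS value ran from -2.29 to -0.25 over the fits that left out 1 array. The level in unstimulated cells was above all the others, and the ranges of the 4 stimulated groups overlapped in order.

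Ly86, which encodes MD-1, was the 1 tested gene that read higher in CD14-deficient cells in every matched condition. Its signal was 1045 unstimulated, 1180.3 and 759.6 with LPS, and 705 and 662 with LPS and thapsigargin in wild-type cells. In CD14-deficient cells it was 2145 unstimulated, 1907 and 1396 with LPS, and 1065 and 916 with LPS and thapsigargin. The ratio was 2.05 before stimulation, 1.62 and 1.84 with LPS, and 1.51 and 1.38 with thapsigargin, and 8.26% of genes tested were higher in CD14-deficient cells in all 5 conditions. The 2 genotypes did not overlap within any 1 treatment, with only 1 or 2 arrays on each side. The share of all genes that did likewise was not counted.

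Under LPS the Ly86 difference, wild type minus CD14-deficient, was -0.79 ± 0.19 (adjusted p = 0.0739). With thapsigargin added it was -0.53 ± 0.19 (adjusted p = 1), and over the 8 stimulated arrays -0.66 ± 0.14 (adjusted p = 0.0815). The value under LPS alone passed in the fit lacking the CD14-deficient LPS array at 60 h (-0.85, adjusted p = 0.0218, with 44.3% of all genes) and not in that lacking the 48 h array (-0.72, adjusted p = 0.0666). The value over the 8 arrays passed in the fits lacking the CD14-deficient LPS array at 48 h (-0.62, adjusted p = 0.0373) or at 60 h (-0.69, adjusted p = 0.0119), with 12.5% and 37.4% of all genes. Unlike Tlr3, Tlr6 and Cd180, the Ly86 ratio at 48 h under LPS was not far from that at 60 h. The Ly86 gap was also present in unstimulated cells, which do not include either CD14-deficient LPS array. Tlr1 shared both traits in the opposite direction, with ratios of 1.40 and 1.23 under LPS and 2.23 in unstimulated cells. The Tlr6 ratio in unstimulated cells was 1.25.

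Ly86 was also lower with thapsigargin in 4 of 4 pairs, by 1.15-fold to 1.79-fold. The fitted difference was -0.60 ± 0.14 over both genotypes (adjusted p = 0.0617) and -0.72 ± 0.19 in CD14-deficient cells (adjusted p = 0.0781). With the CD14-deficient LPS array at 48 h or at 60 h left out, the first value was -0.56 (adjusted p = 0.0259) or -0.63 (adjusted p = 0.0190), with 33.1% and 33.2% of all genes past the threshold. From 48 to 60 h it was lower in 4 of 4 pairs, as were 7.61% of genes tested, with a fitted difference of -0.35 ± 0.14 (adjusted p = 0.503). The order with time did not hold on the deposited values before scaling, where 2 of 4 pairs were lower.

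**Figure D3:**
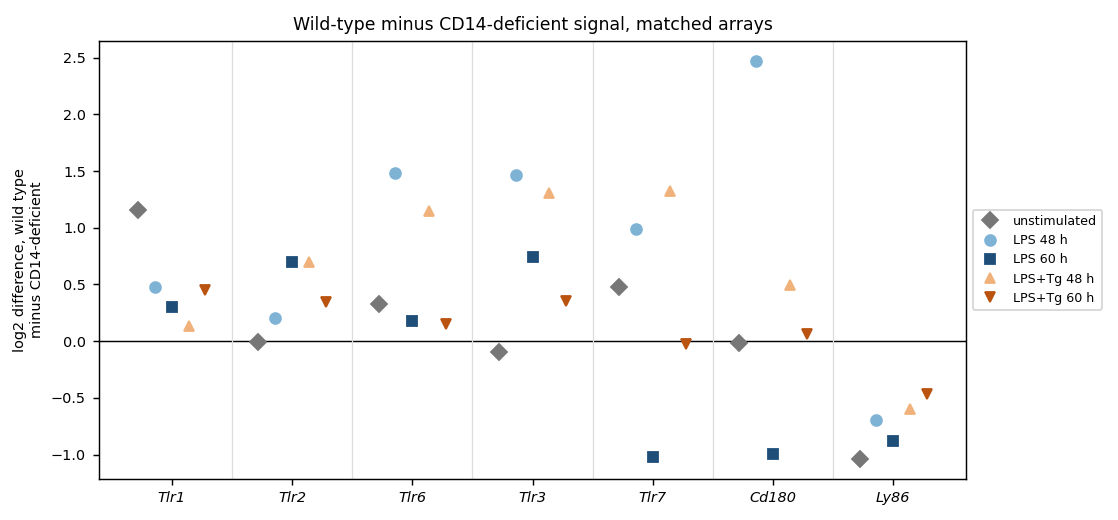
Log2 difference of the scaled signal, wild type minus CD14-deficient, for each tested gene in the 5 matched conditions; each point is 1 pair of arrays and the line marks 0. Ly86 lies below 0 and Tlr1 and Tlr6 above 0 in all 5 conditions, while the points of Tlr7 and Cd180 lie on both sides, with the widest spread for Cd180.

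The 2 genes of the RP105 and MD-1 complex did not follow each other: over the 10 arrays the Pearson correlation of Cd180 and Ly86 on the log2 scale was 0.19. Among the 7 tested genes the highest correlation was 0.89, of Tlr3 with Tlr6, and the lowest were -0.80 and -0.79, of Ly86 with Tlr3 and with Tlr6. Tlr1 and Tlr6 correlated at 0.17. These are descriptions over 10 arrays that share the same extremes, among them the CD14-deficient LPS array at 48 h, where Tlr3 and Tlr6 were both lowest.

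**Figure D4:**
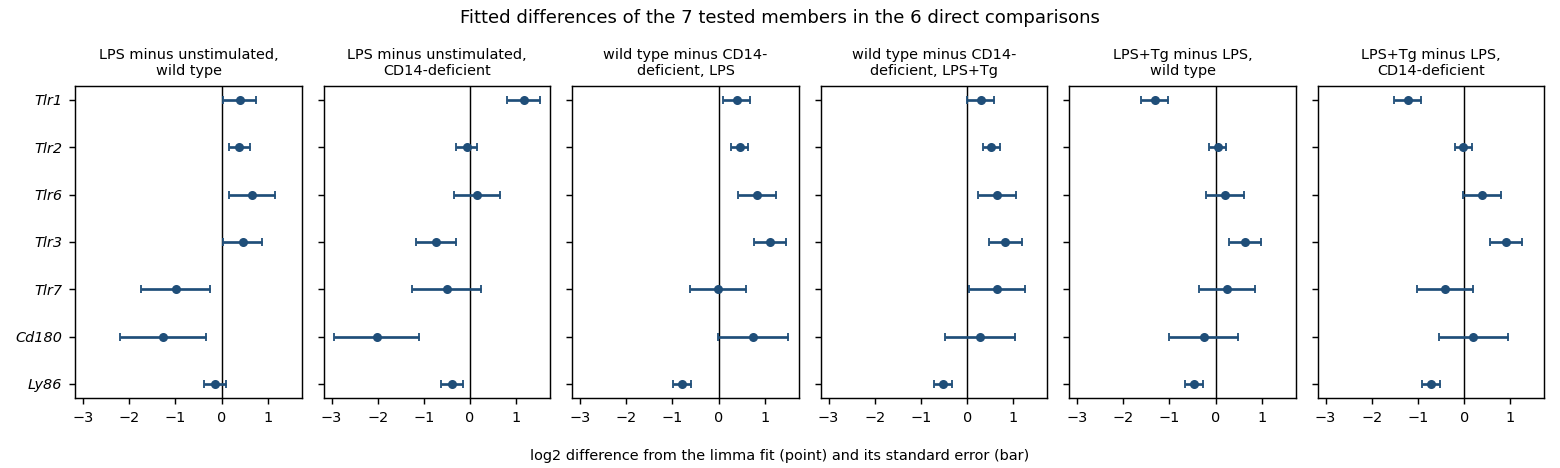
Differences on the log2 scale from the limma fit (points) with their standard errors (bars) for the 7 tested genes in the 6 direct comparisons of the design; Tg is thapsigargin. None passed an adjusted p of 0.05. The bars of Cd180 and Tlr7 are the widest and those of Tlr2 and Ly86 the narrowest.

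For each tested gene, the 3 others with the most similar values were named by Pearson correlation over the 10 arrays. They were Mmp14 (0.96), Pcdh7 and Ctps2 for Tlr1, Slc35f5 (0.97), Cept1 and Rhno1 for Tlr2, and Batf (0.94), Dusp13 and Tmem87a for Tlr6. For Tlr3 they were Hcar2 (0.97), Mrpl22 and Mlx, and for Tlr7 Sobp (0.93), Txnrd3 and Nol12. For Cd180 they were Cd300lf (0.98), Lat2 and Selenof, and for Ly86 Lsr (0.91), Atp6v1f and Prdx4. None of the 7 genes was among the 3 nearest of another.

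Of the LPS receptor genes, Tlr4 read 739 to 1320 and Ly96, which encodes MD-2, 490 to 1386 over the 10 arrays, and neither passed in any comparison. The wider pathway, a list of 57 genes for the LPS receptor (Cd14 included), further Toll-like receptors, co-receptors, adaptors, endosomal trafficking, kinases, interferon regulatory factors and negative regulators, had 39 genes tested. In wild-type cells 3 of the 39 rose with LPS and 2 fell, 12.8% against 15.9% of all genes. Cd14, Irf7 (3.48 ± 0.30, adjusted p = 0.0038), the interferon regulatory factor downstream of TLR7 and TLR9, and Tnip1 (1.55 ± 0.22, adjusted p = 0.0117), a restraint on NF-kappaB, rose. The adaptor Myd88 (-1.10 ± 0.24, adjusted p = 0.0333) and the phosphatase gene Inpp5d (-1.63 ± 0.30, adjusted p = 0.0225) fell. In CD14-deficient cells 2 of 39 rose, Irf7 (1.66 ± 0.30, adjusted p = 0.0439) and Tnip1 (1.30 ± 0.22, adjusted p = 0.0405), and none fell, 5.13% against 4.17% of all genes. Of these, Cd14 and Irf7 in wild-type cells passed in all 8 fits that left out 1 array, Tnip1 in 6, Inpp5d in 3 and Myd88 in 2, and both genes in CD14-deficient cells passed in 2.

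Between genotypes under LPS, 3 of the 39 were higher in wild-type cells, Cd14, Irf7 (2.16 ± 0.25, adjusted p = 0.0173) and Hsp90b1 (0.99 ± 0.18, adjusted p = 0.0413), and 1 was lower, Irf5 (-0.996 ± 0.17, adjusted p = 0.0370), 10.3% against 5.18% of all genes and with the deleted gene among the 3. Hsp90b1 encodes gp96, the endoplasmic reticulum chaperone on which most Toll-like receptors depend for folding, and its signal under LPS was 6784 and 7197 in wild-type and 3861 and 3219.5 in CD14-deficient cells. With thapsigargin in CD14-deficient cells, Hsp90b1 (1.01 ± 0.18, adjusted p = 0.0316) and Irf7 (2.11 ± 0.25, adjusted p = 0.0160) rose and Inpp5d (-1.30 ± 0.25, adjusted p = 0.0379) fell, 7.69% against 6.62% of all genes. Between genotypes, Cd14 passed in all 8 fits that left out 1 array and the other 3 genes in 2, and for thapsigargin Irf7 and Inpp5d passed in 4 and Hsp90b1 in 2. In wild-type cells 0 of 39 passed for thapsigargin. Cnpy3 and Unc93b1, whose products some Toll-like receptors need in order to leave the endoplasmic reticulum, passed in no comparison.

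Macrophage and B cell transcripts, which bear on Cd180, Tlr7 and Ly86 since those cells also express them, differed between the conditions. The summed signal of 11 of 12 macrophage markers measured was 38542 in wild-type and 43875 in CD14-deficient unstimulated cells, 33230 and 26771 with LPS in wild-type cells, 9936 and 28746 with LPS in CD14-deficient cells, and 15145 to 19735 with thapsigargin. Cd163 was under the floor on all 10 arrays, and Mrc1 read 2608 and 2701 unstimulated and 11.9 to 55.9 stimulated. The markers in this sum did not move together. In wild-type cells Adgre1 read 2695.5 unstimulated and 8473 and 7815 with LPS, whereas C1qb read 6032 unstimulated and 661 and 232 with LPS. The summed signal of 8 of 9 B cell markers was 97.7 to 203 on 8 arrays, and 556 and 308 on the CD14-deficient LPS arrays at 48 and 60 h. Ms4a1 alone read 341 and 113 on these last 2 arrays, and 1 of the 9 markers was bright enough to be tested. Ebf1 and Cr2 were under the floor on all 10 arrays. The part of these markers in the Cd180, Tlr7 and Ly86 values was not tested. In the unstimulated cells, where Ly86 was 2.05-fold higher in CD14-deficient cells, the macrophage sums were 38542 in wild-type and 43875 in CD14-deficient cells. Within these sums C1qa read 2879 and 5278, C1qc 2914 and 4459, and Marco 139 and 471, in the same order. C1qb, Fcgr1 and Mrc1 were also higher in CD14-deficient cells, whereas Adgre1, Csf1r, Mertk and Cd68 were slightly lower (Csf1r 10456 and 10150). The B cell sums were 127 and 97.7, in the same order. The brightest B cell marker there, Ms4a1, read 47.9 and 41.3, below the median of all probe sets. No direction is read from the B cell sums.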

How the data were processed

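Labelled RNA of 10 samples was hybridised to 1 array each. The authors deposited 1 intensity for each probe set on a linear scale, made with MAS5 per the submitters' processing notes. Its version and scaling target are not stated by the labels or file headers. Each array was multiplied to 1 trimmed mean (2% off each end, 508.8), the pooled 25th percentile (13.4) was set as a floor, and log2 was taken. A gene was represented by its brightest probe set with 1 symbol. Genes above the pooled median (99.2) on at least 2 arrays, 7474 of 12393, entered limma 3.58.1 in R 4.3.3 with 6 genotype and treatment levels and a 60 h against 48 h term, eBayes with an intensity trend, 3 residual degrees of freedom, and Benjamini-Hochberg adjustment over all 7474 genes at 0.05. A log2 difference understates changes near the floor. The number of arrays limits the precision.

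All 8 genes, every probe set of theirs, the 3 most alike genes, and passing genes of the pathway lists (at most 4 for each list and comparison, by size) are named. Members, lists and motifs were chosen with earlier results of these data known. Alternatives were other scaling, no floor, other filters, no trend, and leaving out each of the 8 stimulated arrays. The fit was tested on simulated data.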

Additional observations from a re-analysis of the deposited data

Results flagged for a closer look

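In 7 contrasts examined for the 7 tested genes, 4 cases had every matched pair of one group on one side of 0 and every pair of the other group on the opposite side. With 2 pairs a group, such splits need no real difference to arise.

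The LPS response of Tlr3 was higher than unstimulated at both times in wild-type cells (mean log2 difference 0.46) and lower at both in CD14-deficient cells (-0.74), a gap of 1.20 for which limma gave an adjusted p of 0.635. In the dim Tlr3 probe set, the CD14-deficient LPS array at 60 h read above the unstimulated one, so this split was seen in the bright probe set only.

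The Tlr6 signal was lower at 60 h than at 48 h in both wild-type pairs (-0.17) and higher in both CD14-deficient pairs (0.98), a gap of -1.15 that was not tested. On the deposited values before scaling it was higher at 60 h in 3 of 4 pairs, the wild-type pair with thapsigargin included (254 to 255), so this split depends on the scaling.

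For Tlr7, thapsigargin arrays were higher than LPS arrays at 48 h in both genotypes (0.45) and lower at 60 h (-0.62), a gap of 1.07. The Tlr7 genotype difference was positive at 48 h under both treatments (1.15) and negative at 60 h (-0.52), a gap of 1.67. Neither gap was tested. At 60 h the genotype difference was -1.02 under LPS but only -0.02 with thapsigargin. In both dim Tlr7 probe sets it was positive at 60 h under LPS (0.34 and 0.42) and with thapsigargin (0.33 and 1.12). In wild-type cells both dim probe sets read lower with thapsigargin at 48 h (-0.05 and -0.25) and higher at 60 h (0.30 and 0.29). Both splits were therefore seen in the bright probe set only. On the deposited values before scaling and after quantile normalization, the bright probe set was also higher with thapsigargin in 2 of 4 pairs and higher in wild-type cells in 3 of 5. All 4 cases rest in part on the CD14-deficient LPS array at 48 h or its 60 h match.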

How the results depend on the processing

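Arrays of the same time were matched in the fit through its 60 h term, and the labels give no replicate numbers to pair further. Of the 77 gene and comparison values, the 23 with an unadjusted p under 0.05 or a log2 difference of at least 1 kept their sign under every alternative run. Of the other 54, 32 changed sign when 1 array was left out, among them the LPS and thapsigargin values of Tlr7 in CD14-deficient cells, and 4 under another array scaling.

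Counts of passing genes moved only as follows. Thapsigargin over both genotypes gave 0 in place of 1 with no filter, and 0 to 3 with 1 array left out. Leaving out 1 array gave 0 to 2 for LPS in CD14-deficient cells, 0 to 4 for genotypes under LPS, 0 to 1 for thapsigargin in wild-type cells, 0 to 3 for thapsigargin in CD14-deficient cells, and 0 to 5 for genotypes over the stimulated arrays. Every rise came from leaving out 1 of the CD14-deficient LPS arrays; the cause was not tested. The other probe sets of Tlr3 and Tlr7 were too dim for the filter, so tests on them were not run. With 3 residual degrees of freedom and no repeat of any condition, a change that misses the threshold is not shown to be absent.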

Other observations

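Tlr5, the flagellin receptor, and Tlr8 were measured but dim. Tlr5 read 3.07 to 26.7, under the floor of 13.4 on 4 arrays, and Tlr8 read 1.83 to 47.6, under the floor on 5. The 2 highest Tlr8 signals, 46.5 and 47.6, were those of the unstimulated arrays, and all 8 stimulated arrays read at most 24.9. Both genes were under the median of all probe sets on every array, so no direction is read from either. Neither gene was tested.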
